A study of Homo sapiens with 6 samples.

Results

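Pentose phosphate and NADPH-making enzymes were followed through the transcripts of 8 genes, taken by symbol from a table of 16670 genes: H6PD, PGD, RPIA, RPE, TKT, TALDO1, ME1 and IDH1. Each of the 8 had a row and reached the minimum level set for testing, as did 13049 genes in all. RNA came from A549, an established human line from a non-small cell lung cancer. Alisertib, which blocks the Aurora A kinase needed for mitosis, had been given for 1 week in every library so that the cells entered senescence, a durable exit from the cell cycle. In the salinomycin group (n = 3) they then received 2.5 µM salinomycin, a polyether ionophore that carries alkali metal ions across membranes, for 48 h, and the untreated group (n = 3) received none. The labels name biological replicates of 1 cell line and no vehicle for the untreated group, and cells without alisertib were not analysed here. The comparison asks what salinomycin does to cells already senescent.

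The pentose phosphate pathway branches from glycolysis at glucose phosphate. Its oxidative branch yields NADPH, the reducing agent for lipid synthesis and for glutathione and thioredoxin, and ribulose phosphate. Its non-oxidative branch interconverts sugar phosphates, so that carbon can leave as ribose for nucleotides or return to glycolysis. Cytosolic malic enzyme (ME1) and cytosolic isocitrate dehydrogenase (IDH1) make NADPH outside the pathway. PGD, TKT, TALDO1, ME1 and IDH1 have all been described as targets of NRF2, the transcription factor of the antioxidant response, which is known to be constitutively active in A549 cells. In mouse liver, PGD and ME1 also respond to the SREBP factors of lipid synthesis.

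NRF2 binds the antioxidant response element, whose core reads TGACNNNGC, so the stretches before the start sites that hold it are shown first, from RefSeq on GRCh38.p14. The RefSeq table had 9 promoter windows for the 8 genes (IDH1 had a pair), each from 250 bases before to 50 bases after a start site. Read on both strands, the core was found in the windows of ME1, PGD, IDH1 and RPE, that is in 4 of 9 windows, and in 13.3% of all 35116 windows in the table. The printed stretches run from 250 to 101 bases before the start site, 5′ to 3′ on the strand of the gene, with the match in capitals.
ME1: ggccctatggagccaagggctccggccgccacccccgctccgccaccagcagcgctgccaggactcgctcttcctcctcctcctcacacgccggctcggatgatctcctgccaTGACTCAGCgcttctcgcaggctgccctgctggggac
PGD: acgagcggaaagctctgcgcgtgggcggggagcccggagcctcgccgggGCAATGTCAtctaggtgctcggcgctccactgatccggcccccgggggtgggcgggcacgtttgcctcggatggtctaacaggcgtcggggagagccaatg
IDH1: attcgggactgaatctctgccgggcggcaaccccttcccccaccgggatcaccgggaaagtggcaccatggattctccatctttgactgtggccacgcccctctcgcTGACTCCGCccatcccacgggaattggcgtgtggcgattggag
RPE: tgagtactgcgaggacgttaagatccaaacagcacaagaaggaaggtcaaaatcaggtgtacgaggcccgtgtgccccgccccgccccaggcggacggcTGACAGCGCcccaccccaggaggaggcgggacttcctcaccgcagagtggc
They lie at chr6:83431152-83431301 on the minus strand, chr1:10398814-10398963 on the plus strand, chr2:208255172-208255321 on the minus strand and chr2:210002388-210002537 on the plus strand. The PGD match reads on the opposite strand, and ME1 had a second match after its start site. No window of the 8 genes held TCACNCCAC, a core of the sterol regulatory element (1.13% of all windows), or TGATGNAA, a core bound by ATF4 with C/EBP partners (3.62%). These cores were searched on both strands. A match is a run of letters and not a shown binding site, and elements outside these windows were not searched.

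Transcripts of PGD, TKT, TALDO1 and ME1 were between 2.11 and 3.56-fold lower in salinomycin than in untreated libraries, while those of the sugar phosphate isomerase and epimerase genes RPIA and RPE and of IDH1 lay within 1.24-fold of the untreated level. H6PD lay between, 1.48-fold lower. At a Benjamini-Hochberg adjusted p under 0.05 in limma, 6 of the 8 genes fell and 2, RPIA and IDH1, did not pass. In this fit no member rose: 0 were called higher by limma and 0 at an unadjusted p under 0.05. By limma-voom 0 were higher too. With libraries scaled by their size alone IDH1 was called higher (log2 change 0.132; limma adjusted p = 0.0293). Over all tested genes 40.4% fell and 41.6% rose, and 82% were called in either direction, so a call by itself sets no gene apart here. Falls of 1.5-fold or more were found for 4 of the 8 genes, against 28.1% of all tested genes, and of 2-fold or more for the same 4, against 18.6%. The median log2 change was -0.82 for the 8 genes and 0.02 for all. The 3 salinomycin values did not overlap the 3 untreated values for 6 of the 8 genes, against 83.1% of all tested genes. Levels are in normalised units, the deposited read value less the 1 added to it and divided by a trimmed-mean (TMM) factor of its library, and each log2 change is salinomycin minus untreated on log2(units + 1). Levels are relative to the rest of each library, and in bulk RNA fewer transcripts per cell and fewer cells making them cannot be told apart.

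**Figure D1:**
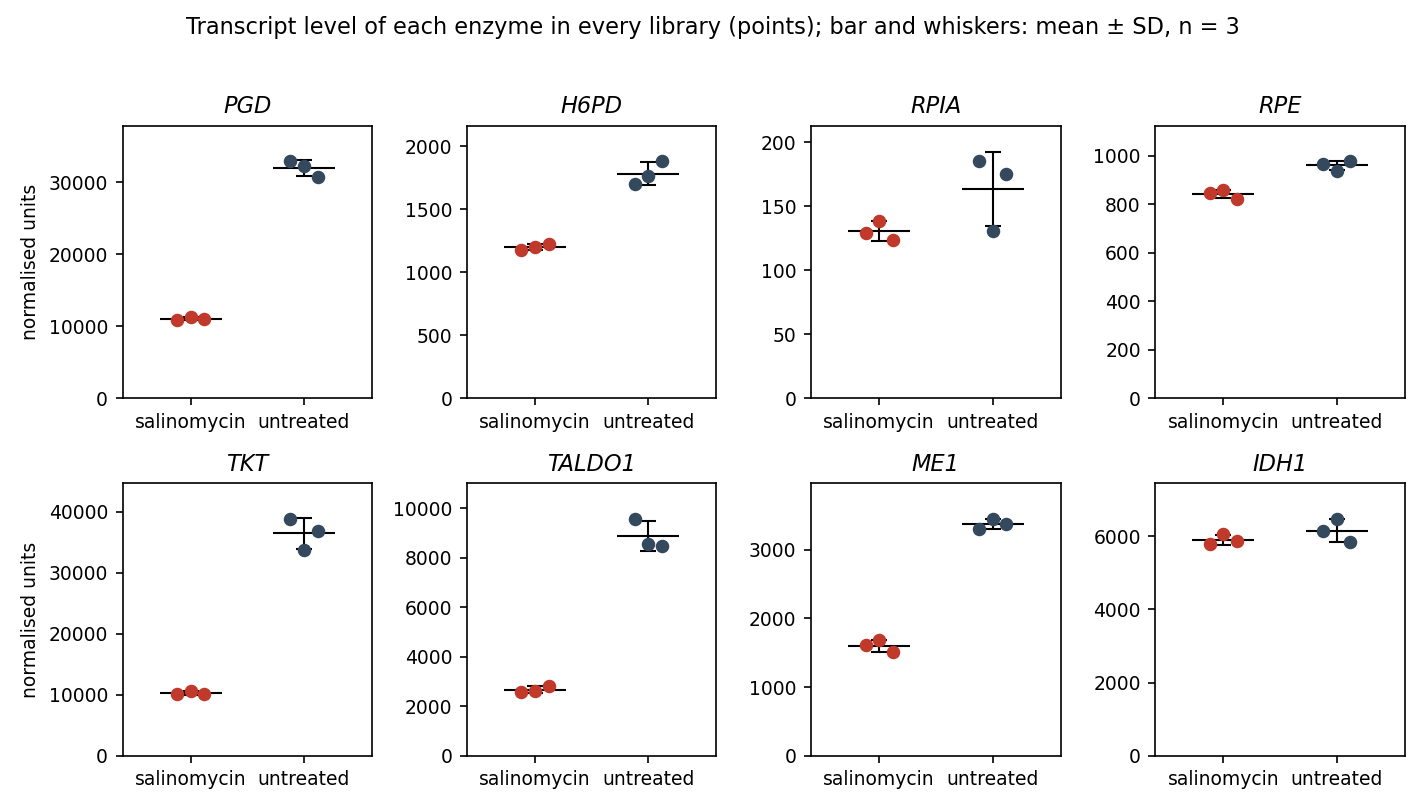
Level of each of the 8 enzyme transcripts in normalised units (vertical axes, each from 0) in the 3 salinomycin and the 3 untreated libraries, with 1 point per library and the mean ± SD. The groups stand well apart for PGD, TKT, TALDO1 and ME1, lie closer for H6PD and RPE, and overlap for RPIA and IDH1.

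PGD encodes phosphogluconate dehydrogenase, which makes NADPH and ribulose phosphate at the end of the oxidative branch in the cytosol (chromosome 1, 10398592 to 10420144, GRCh38). PGD had 10898, 11284 and 11019.8 normalised units in the salinomycin libraries, against 32868, 32243 and 30765 in the untreated libraries. The groups did not overlap, and the lowest untreated library lay far above the highest salinomycin library. The log2 change was -1.53 (SE 0.05; limma adjusted p = 7.91e-11), a 2.89-fold fall. H6PD encodes the hexose phosphate dehydrogenase of the endoplasmic reticulum lumen, which supplies NADPH inside that compartment (chromosome 1, 9234775 to 9271337). H6PD had 1180.4, 1198 and 1222 normalised units in the salinomycin libraries, against 1699, 1764 and 1879 in the untreated libraries. All 3 salinomycin libraries again lay below all 3 untreated ones, by less than for PGD (log2 change -0.57, SE 0.054; limma adjusted p = 1.01e-06). The ratio of PGD to H6PD within a library, which no scaling between libraries can alter, was 9.23, 9.42 and 9.02 in salinomycin libraries, against 19.3, 18.3 and 16.4 in untreated libraries. It was 1.95-fold lower with salinomycin, and the groups did not overlap.

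RPIA encodes ribose phosphate isomerase, which turns ribulose phosphate into the ribose phosphate used for nucleotides (chromosome 2, 88691644 to 88750935). RPIA had 129, 139 and 124 normalised units in the salinomycin libraries, against 185, 131 and 175 in the untreated libraries. Untreated replicate 2 sat among the salinomycin values and the other untreated libraries above them. With a log2 change of -0.31 (95% interval -0.61 to -0.01; limma adjusted p = 0.0513), RPIA did not pass. Without untreated replicate 2 the change was -0.46 and passed (limma adjusted p = 0.00264), and adjusted p ranged from 0.00264 to 0.413 over all the settings tried. RPE encodes the epimerase that makes xylulose phosphate from the same ribulose phosphate (chromosome 2, 210002565 to 210022259). RPE had 849, 858 and 823 normalised units in the salinomycin libraries, against 966, 938 and 977 in the untreated libraries. Its groups stood apart by a small margin, a 1.14-fold fall (log2 change -0.19, SE 0.054; limma adjusted p = 0.00676). That call rests on the scaling: with libraries scaled by their size alone the log2 change was 0.003 (limma adjusted p = 0.957). Exons of KANSL1L on the opposite strand cover 23.8% of the RPE exon bases in GENCODE 29, and the strand used in counting was not given in the sources used here. RPE also has a near-identical coding copy, RPEL1, and several processed pseudogenes, between which reads could have been split.

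TKT encodes transketolase, which moves carbon pairs between sugar phosphates and links the pathway back to glycolysis (chromosome 3, 53224707 to 53256052). TKT had 10040.2, 10571 and 10113 normalised units in the salinomycin libraries, against 38863, 33811 and 36849.8 in the untreated libraries. It fell most of the 8 genes in the fit, 3.56-fold (log2 change -1.83, SE 0.06; limma adjusted p = 7.64e-11), and only 8.4% of all tested genes had a lower log2 change. TALDO1 encodes transaldolase, its partner in the same branch (chromosome 11, 747329 to 765024). TALDO1 had 2580.2, 2609 and 2822 normalised units in the salinomycin libraries, against 9578, 8542 and 8487 in the untreated libraries. No salinomycin library reached the untreated range, and the fall was 3.32-fold (log2 change -1.73, SE 0.059; limma adjusted p = 1.17e-10). The intervals of the TKT and TALDO1 changes overlapped, from -1.96 to -1.70 and from -1.86 to -1.60. Within a library TKT stood to TALDO1 at 3.89, 4.05 and 3.58 in salinomycin libraries, against 4.06, 3.96 and 4.34 in untreated libraries. These ratios overlapped between the groups.

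Ratios within a library also set the steps of the pathway side by side. The ratio of TKT to RPE was 11.8, 12.3 and 12.3 in salinomycin libraries, against 40.2, 36.0 and 37.7 in untreated libraries, 3.13-fold lower with salinomycin. The ratio of PGD to RPE, the enzymes that make and then consume ribulose phosphate, was 12.8, 13.2 and 13.4 in salinomycin libraries, against 34.0, 34.4 and 31.5 in untreated libraries, 2.54-fold lower. RPE stood to RPIA at 6.60, 6.18 and 6.64 in salinomycin libraries, against 5.23, 7.17 and 5.58 in untreated libraries, and there the groups overlapped. In all, 11 ratios between members, or between a member and a related isoform, were formed after the values had been seen, so they are given as a description with no test. The groups did not overlap in 9 of them, and of these only ME1 to ME3, its mitochondrial relative, was higher with salinomycin (1.18-fold). For genes taken singly the groups did not overlap in 83.1% of all those tested, so separation by itself sets no pair apart.

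**Figure D2:**
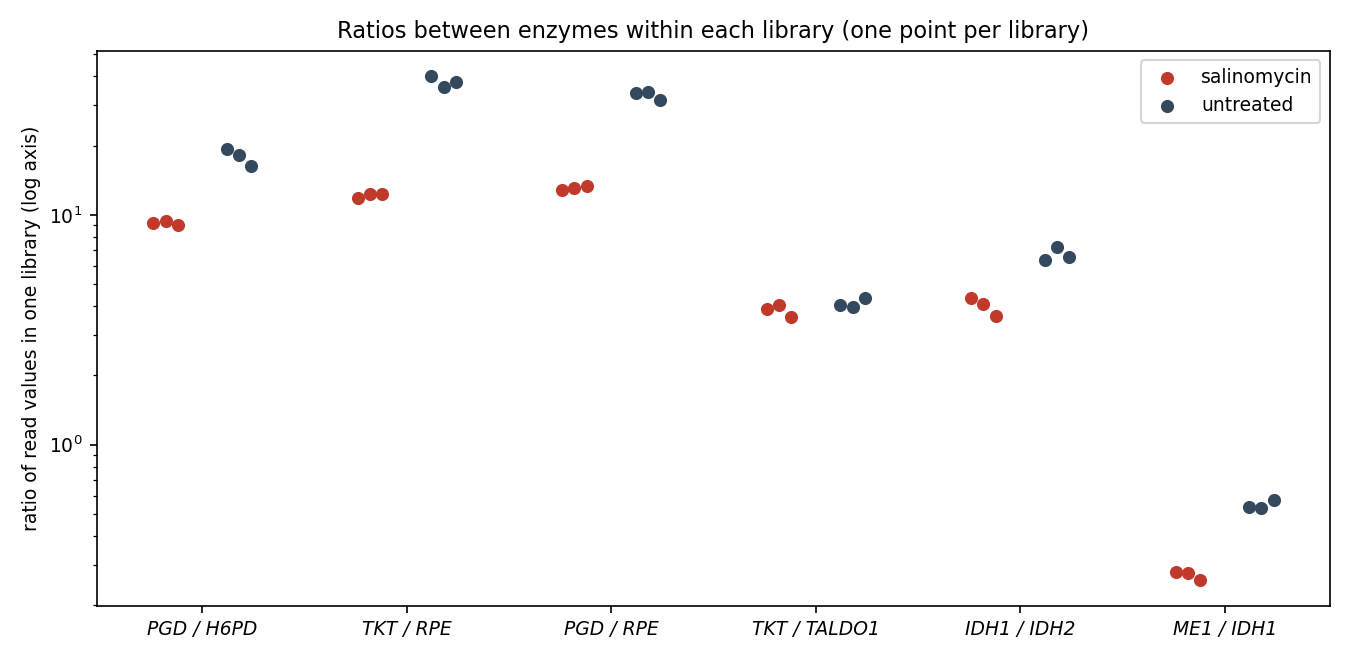
Ratio of the read values of a pair of enzyme genes within each library (log axis), with 3 salinomycin libraries left and 3 untreated libraries right in each pair. PGD over H6PD, TKT over RPE, PGD over RPE, IDH1 over IDH2 and ME1 over IDH1 were lower in all salinomycin libraries, and TKT over TALDO1 overlapped.

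ME1 encodes cytosolic malic enzyme, which makes NADPH while turning malate into pyruvate (chromosome 6, 83210389 to 83431071). ME1 had 1618, 1678 and 1509 normalised units in the salinomycin libraries, against 3298, 3451 and 3373 in the untreated libraries. Its groups did not overlap, and the fall was 2.11-fold (log2 change -1.07, SE 0.053; limma adjusted p = 2.48e-09). IDH1 encodes the cytosolic and peroxisomal isocitrate dehydrogenase that makes NADPH (chromosome 2, 208236227 to 208266074). IDH1 had 5783, 6053 and 5886 normalised units in the salinomycin libraries, against 6146, 6484 and 5849.6 in the untreated libraries. The groups overlapped, and IDH1 did not pass (log2 change -0.06, 95% interval -0.17 to 0.05; limma adjusted p = 0.298). Its direction turned with the scaling, at 0.13 with library size alone (limma adjusted p = 0.0293) and -0.15 with upper-quartile scaling (limma adjusted p = 0.0245), and the authors' deposited table gave it a log2 change of 0.136 with an adjusted p of 0.0383. The ratio of ME1 to IDH1 within a library was 0.280, 0.277 and 0.257 in salinomycin libraries, against 0.537, 0.532 and 0.577 in untreated libraries, 2.02-fold lower with salinomycin, with no overlap, and no scaling between libraries alters it.

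The scaling sets where no change lies. With library size alone the tested genes as a whole had a median log2 change of 0.21, against 0.02 with TMM factors, and every member's change moved up by a like amount. PGD, TKT, TALDO1, ME1 and H6PD fell and passed under each scaling tried. In the authors' deposited table the log2 changes were -1.64 for TKT, -1.53 for TALDO1, -1.33 for PGD, -0.877 for ME1, -0.372 for H6PD, -0.128 for RPIA and 0.00907 for RPE.

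**Figure D3:**
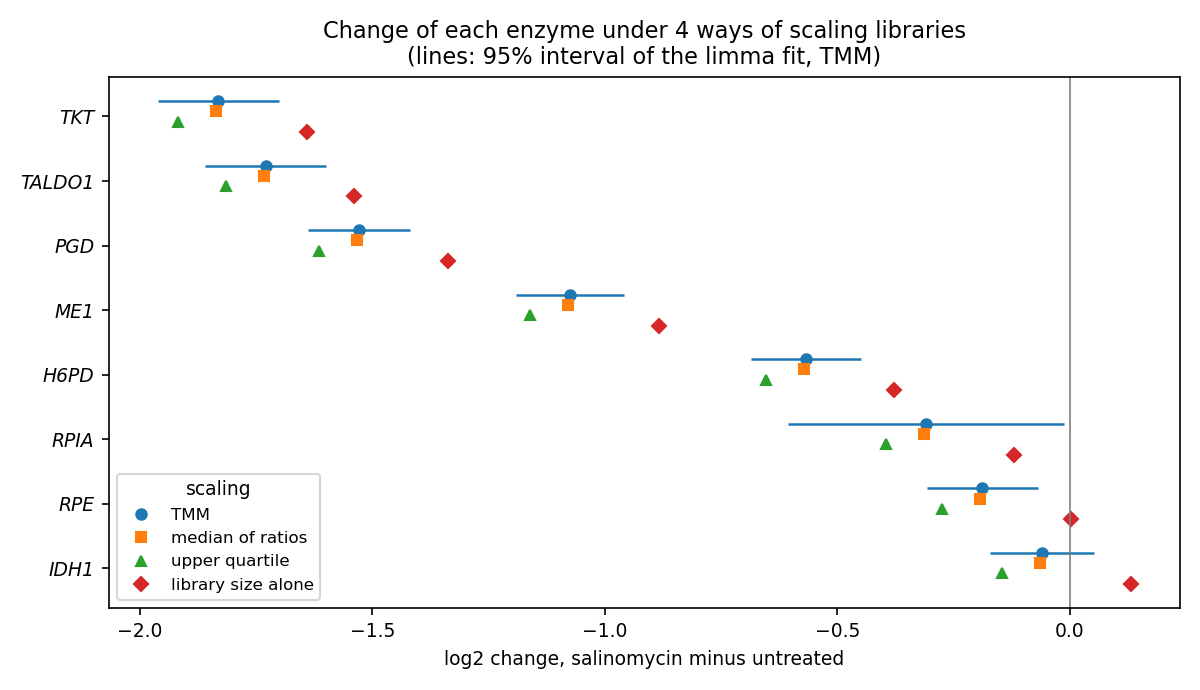
Log2 change of each enzyme transcript, salinomycin minus untreated (horizontal axis), under 4 ways of scaling (TMM, library size alone, median-of-ratios, upper quartile), with the 95% interval of the limma fit for TMM. TKT, TALDO1, PGD, ME1 and H6PD stayed below 0 under all 4, while RPE and IDH1 lay above 0 with library size alone.

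Together the 8 transcripts made up 0.221% ± 0.0034 of a salinomycin library and 0.515% ± 0.014 of an untreated library (n = 3 libraries a group, ± SD). Such a share is a fraction of the library total, and so follows library-size scaling and not TMM. Per kilobase of transcript, the order of levels in untreated libraries was PGD (16954 ± 573 units per kb), TKT (12129 ± 845), TALDO1 (6589 ± 456), IDH1 (2523 ± 130.0), ME1 (1001 ± 22.7), RPE (374 ± 7.84), H6PD (195 ± 9.95) and RPIA (88.5 ± 15.6). In salinomycin libraries IDH1 (2420.1 ± 55.7 units per kb) stood above TALDO1 (1984 ± 98.0), after PGD (5871 ± 105) and TKT (3402 ± 95.6), and the order of the rest was the same. In each group neighbours in the order lay further apart than their SDs. The length is that of the longest APPRIS principal transcript in GENCODE 29, and which transcripts A549 cells use was not measured.

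Isoforms in other compartments did not follow their cytosolic relatives in one way. IDH2, the mitochondrial NADP-dependent isocitrate dehydrogenase, rose 1.61-fold, with 1479.8 ± 141 units in salinomycin and 917 ± 45.3 units in untreated libraries (SD, n = 3 each; limma adjusted p = 2.54e-06). The ratio of IDH1 to IDH2 was 4.33, 4.08 and 3.64 in salinomycin libraries, against 6.34, 7.26 and 6.57 in untreated libraries. The subunit genes of the mitochondrial NAD-dependent enzyme, IDH3A, IDH3B and IDH3G, also rose, with log2 changes of 0.53, 0.26 and 0.94. The mitochondrial malic enzymes fell with ME1: ME3, which is NADP-dependent, fell 2.48-fold and ME2, which works mainly with NAD, fell 1.57-fold. TKTL1, a transketolase-like gene, had no value here and was not analysed.

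Other genes of pentose metabolism and of the making of phosphoribosyl pyrophosphate numbered 11 among those tested: 3 rose and 6 fell, 2 did not pass, and the median log2 change was -0.24. For comparison, 41.6% of all tested genes rose, 40.4% fell and 82% were called in either direction, so these counts set the list little apart. RBKS, the ribokinase gene that feeds free ribose into the pathway, rose 4.79-fold, with 999 ± 47.8 units in salinomycin and 209 ± 32.4 units in untreated libraries (SD, n = 3 each; limma adjusted p = 1.45e-09). PGM2, whose product interconverts pentose phosphates, rose 1.80-fold. TIGAR, a phosphatase that lowers fructose bisphosphate and so favours the pentose route, fell 2.19-fold, and SHPK, the sedoheptulose kinase gene, fell 1.77-fold. PGLS, the lactonase of the oxidative branch, had 598 ± 34.1 units in salinomycin and 634 ± 61.6 units in untreated libraries and did not pass (log2 change -0.08; limma adjusted p = 0.357). PRPS1, a phosphoribosyl pyrophosphate synthetase gene, did not pass either (1900.4 ± 17.6 units in salinomycin and 1746 ± 127 units in untreated libraries).

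Of 11 tested genes for other sources of NADPH and for the NAD kinases, 4 rose, 4 fell and 3 did not pass. The shares over all tested genes were 41.6% higher and 40.4% lower, near those of this list. Its median log2 change was 0.11. The mitochondrial folate genes ALDH1L2 and MTHFD2, whose products make NADPH or NADH from one-carbon units, rose 7.73 and 3.24-fold. ALDH1L2 had 2532, 2587 and 2381 units in salinomycin libraries, against 277, 311 and 389 in untreated libraries. NADK2, the mitochondrial kinase that makes NADP from NAD, rose 4.07-fold, with 1044 ± 97.3 units in salinomycin and 256 ± 26.0 units in untreated libraries, whereas the cytosolic NADK fell 1.90-fold, with 426 ± 18.2 units in salinomycin and 808 ± 12.4 units in untreated libraries (SD, n = 3 each; limma adjusted p = 1.07e-09 and 4.27e-08 in that order). NNT, the transhydrogenase of the inner mitochondrial membrane, fell 1.85-fold. MTHFD1, the cytosolic folate enzyme, did not pass (2685 ± 86.1 units in salinomycin and 2487 ± 96.5 units in untreated libraries).

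Genes whose products use NADPH were counted in 2 lists, and the difference between the lists was not tested. Both were chosen with earlier results of these data known, so their medians are a description only. Of 15 reductases acting on oxidants, quinones, carbonyls or folates, 11 fell and 3 rose, 1 did not pass, and the median log2 change was -1.34. Among all tested genes 40.4% fell and 41.6% rose. They held 0.406% ± 0.007 of a salinomycin library and 1.97% ± 0.059 of an untreated library. The largest falls were those of AKR1B10 (17.6-fold), PTGR1 (12.2-fold), AKR1C1 (8.87-fold) and AKR1C2 (8.29-fold), of which AKR1C1 and AKR1C2 are near-identical copies whose reads counting could have split. GSR and TXNRD1, the reductases of glutathione and cytosolic thioredoxin, fell 2.39 and 2.53-fold, while the mitochondrial TXNRD2 rose 1.26-fold. BLVRB rose 1.36-fold. CBR3 passed narrowly as higher, with overlapping groups of 79.6, 64.7 and 79.8 units in salinomycin libraries, against 53.0, 55.3 and 65.1 in untreated libraries (limma adjusted p = 0.0443). The 3 calls of higher genes in this list were 2 with upper-quartile scaling, with no filter, with the replicate block and in 4 of the 6 fits that leave out a library. CBR1 did not pass (1746 ± 127 units in salinomycin and 1619 ± 99.2 units in untreated libraries).

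Of 12 genes for NADPH-using steps of lipid synthesis, 8 rose and 2 fell, 2 did not pass, and the median log2 change was 0.61. Among all tested genes 41.6% rose and 40.4% fell. They held 0.225% ± 0.0032 of a salinomycin library and 0.0726% ± 0.0032 of an untreated library. DHCR7, of the last steps to cholesterol, rose 9.70-fold and the squalene epoxidase gene SQLE 5.34-fold. The fatty acid synthase gene FASN rose 4.15-fold and the sterol demethylase gene CYP51A1 3.98-fold. CYP51A1 was low, with 108 ± 21.2 units in salinomycin and 27.8 ± 13 units in untreated libraries. The 95% interval of its log2 change was wide, 1.38 to 2.61. The 2 that fell were POR, whose product passes electrons from NADPH to cytochromes P450 and squalene epoxidase (1.73-fold), and the sterol reductase gene TM7SF2 (1.65-fold). Transcripts of PGD, TKT, TALDO1 and ME1 fell in the same libraries in which 8 of these lipid NADPH users rose and 2 fell. Of the 15 redox NADPH users, 11 fell in these libraries and 3 rose.

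Upper glycolysis, where the pathway leaves and rejoins, had 5 of 13 tested genes higher, 7 lower and 1 that did not pass. Its median log2 change was -0.46. Of all tested genes 41.6% were higher and 40.4% lower. The largest changes were rises of the hexokinase gene HK2 (93.0-fold on the log2(units + 1) scale) and the aldolase gene ALDOC (12.3-fold) and falls of PFKFB3 (4.97-fold), which makes an activator of phosphofructokinase, and PFKM (4.01-fold), a phosphofructokinase gene. GPI, the isomerase at the branch point, fell 1.38-fold, and TPI1 and GAPDH, past the point of return, fell 2.46 and 1.94-fold. ALDOA rose, with 390.0 ± 49.6 units in salinomycin and 137 ± 34.0 units in untreated libraries, but 53.5% of its exon bases are shared with other annotated genes, so its value is uncertain. PFKL did not pass (1314 ± 82.8 units in salinomycin and 1319 ± 166 units in untreated libraries).

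**Figure D4:**
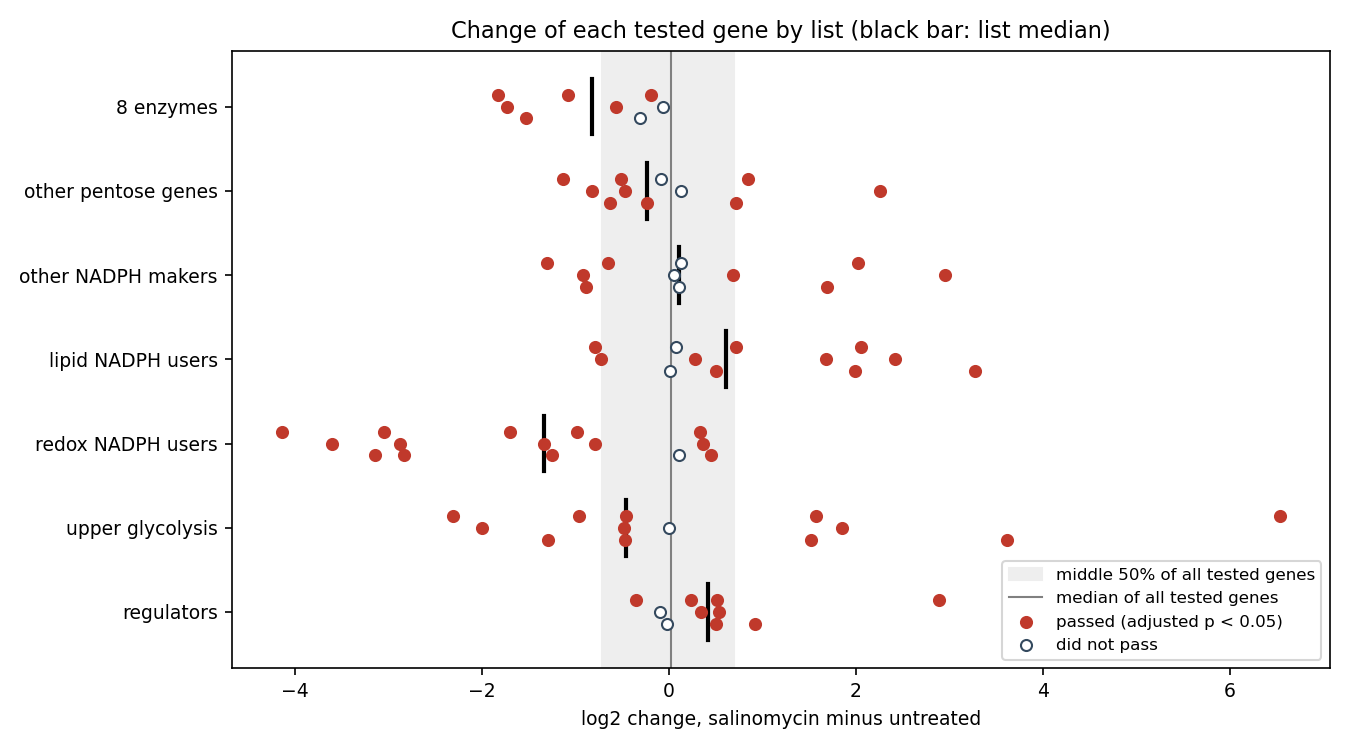
Log2 change of each tested gene, salinomycin minus untreated (horizontal axis), for the 8 enzymes and 6 further lists, with filled points for genes that passed and open points for those that did not. The median of the redox NADPH users lay at -1.34 and that of the 8 enzymes at -0.82. That of the lipid NADPH users lay at 0.61, with all tested genes at 0.02. The enzymes and lists were chosen with earlier results of these data known.

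Among 10 genes of transcription factors with known targets among NADPH-making enzymes in general, 7 rose, 1 fell and 2 did not pass. The median log2 change was 0.42. Of all tested genes 41.6% rose and 40.4% fell. NFE2L2, the gene of NRF2, was the one that fell, 1.28-fold, with 1879 ± 40.8 units in salinomycin and 2399 ± 79.3 units in untreated libraries (SD, n = 3 each; limma adjusted p = 2.96e-05). Its small MAF partners MAFF, MAFG and MAFK rose 7.40, 1.43 and 1.27-fold, and BACH1, a repressor at the same elements, did not pass (462 ± 39.0 units in salinomycin and 493 ± 33.6 units in untreated libraries). ATF4 rose 1.90-fold, and MLX, a partner of the glucose-sensing factor MLXIPL, 1.45-fold. SREBF1 rose 1.18-fold and SREBF2 did not pass (2647 ± 53.0 units in salinomycin and 2683 ± 224 units in untreated libraries). Transcript levels of these factors do not measure their activity.

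By Euclidean distance between centred log2 values over the 6 libraries, among genes with a mean of at least 50 units, the genes nearest to TKT, the member with the lowest log2 change, were SMO, SLC4A11 and TSPAN9, at distances of 0.048, 0.077 and 0.087 log2 units. The nearest to IDH1, the member with the highest, were AIMP1, RHEB and POLR2F, at 0.042, 0.049 and 0.051. With 2 groups of libraries such likeness mostly measures a like fold change. In the authors' deposited table of gene sets, the KEGG pentose phosphate pathway had a normalised enrichment score of -1.462 (their adjusted p = 0.195) and the set for NADPH regeneration -1.406 (adjusted p = 0.247). Of the 12 sets there whose names hold pentose or NADP, 11 had a score below 0 and 7 an adjusted p under 0.05, all 7 below 0. The pentose phosphate pathway and NADPH regeneration sets were not among these 7. The lowest score was that of aldo-keto reductase activity, -2.242 (adjusted p = 0.000504). Shares over all the deposited sets were not computed, so these counts do not set the pentose or NADP sets apart.

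Totals of the values rescaled by the authors, less the 1 in each gene, lay between 16253579 and 16366234 per library, and reads estimated from rounding steps lay between 14935771 and 19641149 for salinomycin and between 13539959 and 16293117 for untreated libraries. As a check of the label, KRT8 and KRT18, keratin genes of simple epithelia, had 11786 ± 1124 and 20262 ± 724 units in salinomycin libraries, against 69665 ± 4132 and 84124 ± 4538 units in untreated libraries. Of 5 epithelial markers 4 fell and 1 rose. KRT19 rose, with 3164 ± 270 units in salinomycin and 1898 ± 41.1 units in untreated libraries. CDH1 had 540 ± 56.1 and 2306 ± 142 units in that order, and EPCAM was low in both, at 19.0 ± 3.1 and 46.7 ± 9.0. The 5 summed to 33824 to 37954 units in salinomycin and 152080.0 to 167705 units in untreated libraries, mostly from KRT8 and KRT18. Of the alveolar type II markers, SFTPB and SFTPC were at 0 or about 1 unit in all libraries, while SFTPA1 was not analysed. ABCA3, a lipid transporter of these cells, rose 1.81-fold, with 3278 ± 149 units in salinomycin and 1821 ± 246 units in untreated libraries (SD, n = 3 each). NKX2-1, a lung lineage factor, had 14.1 to 16.9 units in salinomycin libraries and 0 in every untreated library. Markers of other cell types summed to 411 to 446 units in salinomycin and 555 to 784 units in untreated libraries, nearly all from COL1A1. COL1A1 and CHGA, a marker of neuroendocrine cells, fell 1.58 and 2.23-fold, CHGA with 6.85 ± 0.485 units in salinomycin and 16.8 ± 4.21 units in untreated libraries. CHGA reached the minimum level for testing only in the untreated libraries, where it was higher, so its fall is a description only. COL1A2, PECAM1, CDH5 and ALB were each under 10 units in every library, and PTPRC was not analysed. What part the changes of these markers have in the results above was not tested.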

How the data were processed

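RNA-seq values per gene of 6 A549 libraries were used, 3 salinomycin and 3 untreated. Per the submitters' processing notes the genome build was GRCh38, and the sources used here name no aligner, read counter or annotation. The signal values deposited, whole numbers with a lowest value of 1, had totals within 0.693% of each other, so the authors had rescaled them and 1 appears to have been added. The same table gave, per the file headers, the authors' log10 means, log2 fold changes, a linear fold change, a test score and p-values per gene, and a second deposited table gave enrichment scores and p-values per gene set. Sets named for NAD rather than NADP were left out.

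The added 1 was subtracted, values were divided by TMM factors (0.925 to 1.08; trimming fractions 0.3 for log ratios and 0.05 for levels), and genes with 10 or more units in at least 3 libraries were tested as log2(units + 1) with limma 3.58.1 in R 4.3.3, with a trended prior variance and p-values adjusted by Benjamini-Hochberg over all 13049 tested genes (3621 set aside). The design allowed for a count test, which rescaled values do not permit. Reads were estimated by likelihood from the steps that rescaling leaves in low values, for depth and limma-voom only. The members and lists were chosen with earlier results of these data known. Named genes were the members, up to 4 genes per list with the largest called change, members of a list that did not pass or went against it, isoforms, and the 3 genes most like 2 members. GSR, TXNRD1, NADK, NNT, GPI, TPI1, GAPDH, MAFK and SREBF1 were added after their values were seen. Coordinates and lengths are those of GENCODE 29 (GRCh38, 1-based), promoters those of RefSeq (GRCh38.p14); no protein sequences were used. The fit was tested on simulated data. The chi-square per gene between libraries of 1 group was 2.86 to 6.74, so none was treated as a repeat.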

Additional observations from a re-analysis of the deposited data

How the results depend on the processing

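Of the results recomputed, 350 values over all settings kept their direction and their side of the threshold, or stayed within 1.5 times as a count. The fall of PGD, TKT, TALDO1, ME1 and H6PD did so under every alternative run. RPE turned to 0.003 and IDH1 to 0.132 with library-size scaling alone, which also made IDH1 the 1 member called higher, and IDH1 passed as a fall of -0.146 with upper-quartile scaling. RPIA passed as a fall with median-of-ratios scaling (-0.314), upper-quartile scaling (-0.396), the stricter filter of 50 units (-0.31), a pseudocount of 8 (-0.296) and limma-voom (-0.3), with adjusted p between 0.0157 and just under 0.05, against 0.0513 as reported. Leaving out each library in turn gave -0.462 to -0.214 for RPIA, and left between 6 and 7 members lower and 0 higher. The scalings differ by construction in the median change they give, and the cause of the other shifts was not tested. With the replicate number as a block, 5305 genes were higher and 5129 lower and 6 members fell, and the block changed no call among the members. Same-numbered libraries had correlations of deviations of -0.178, -0.016 and -0.034, and no library correlated best with its own number. The values thus show no pairing by number, but 3 libraries a group cannot settle whether the libraries were paired. No filter and a pseudocount of 0.5 changed no call among the members, and no count of calls in the 6 further lists moved by more than 1.5 times under any alternative.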
